A study of Homo sapiens with 4 samples.

Results

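The genes of this report are 36 genes of peroxisome biogenesis and peroxisomal metabolism, taken as a named list of import factors, membrane assembly factors, proliferation factors, transporters and enzymes. All 36 symbols were matched to 1 Ensembl identifier each among the 61544 genes of the count table. RNA-seq was performed on 4 libraries from HT29 and HCT116, which are established human colorectal cancer cell lines. The libraries were HT29 cells with lipopolysaccharide (LPS, a bacterial outer membrane component that drives inflammation) at 1 ug/mL for 24 h, HT29 control cells, HCT116 cells with LPS at 1 ug/mL for 24 h, and HCT116 control cells. Both lines were used without any stated genetic change, and the study set them side by side as in vitro inflammation models that differ in basal glucocorticoid receptor expression. Each group is 1 library, so differences between LPS and control within a line have no replicate check, and each line stands for 1 cell line and not for a class of tumours.

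Peroxisomes are single-membrane organelles that shorten very long and branched fatty acids, make the first intermediates of ether lipids, and both produce and remove hydrogen peroxide. Their enzymes are made in the cytosol and imported folded: the receptor PEX5 reads a C-terminal tripeptide on most cargo, PEX7 reads an N-terminal signal on a few proteins, and a membrane complex of peroxins docks the receptors and recycles them. In the intestinal epithelium, nuclear receptors of the PPAR family with their partner RXR are known to regulate several of the beta-oxidation genes.

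The libraries held between 19105058 and 21268959 counts, of which the 36 members took between 0.155% and 0.171%. Mitochondrially encoded genes took 4.29% and 3.75% of the counts in the LPS and control libraries of HT29, and 7.16% and 5.01% in those of HCT116. The epithelial genes EPCAM, KRT8, KRT18, KRT19 and CDH1 had at least 1676 counts in every library. VIL1 was nearly absent from HCT116, with 0 and 4 counts in its LPS and control libraries, and CDX2 was low in HT29, with 39 and 18 counts. Of 6 immune markers, PTPRC, CD68, CD3E and MS4A1 had between 0 and 7 counts in every library, while CD14 had 137 and 140 counts in HT29 LPS and control cells and 9 and 12 counts in HCT116. LYZ reached 20709 and 18532 counts in HT29 LPS and control cells and 0 in both HCT116 libraries. COL1A1 had 59 and 81 counts in HT29 LPS and control cells, against 1999 and 2225 counts in those of HCT116. The other 4 stromal markers were lower, with COL3A1 between 0 and 10 counts, PECAM1 between 5 and 39, PDGFRB between 3 and 33, and VWF between 4 and 39. The part of these differences between lines in the values below was not tested.

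Several of the enzymes that differed between the lines are cargo of PEX5, so the ends of their coding sequences are shown first. Each is the last 24 coding bases on hg38, read 5′ to 3′ in the last exon of the Ensembl canonical transcript, with the 3 codons before the stop codon in capitals. These codons encode the tripeptide at the C-terminus. ACOX2, EHHADH and CROT are the enzymes that differed most between the lines, and ACOX3, HSD17B4 and SCP2 are the enzymes of neighbouring steps that both lines expressed. ACAA1 is shown for contrast because its import signal lies at the N-terminus and is read by PEX7.
ACOX2 (chr3:58505224-58505247, minus strand, exon 15 of 15): caaagttggagaTCCAAGCTAtga
ACOX3 (chr4:8366961-8366984, minus strand, exon 18 of 18): ggaagtctgaaaTCGAAGCTCtag
EHHADH (chr3:185192226-185192249, minus strand, exon 7 of 7): ggctcccctagcAGTAAATTGtga
HSD17B4 (chr5:119541971-119541994, plus strand, exon 24 of 24): cttaaagactacGCCAAGCTCtga
SCP2 (chr1:53050681-53050704, plus strand, exon 16 of 16): cagccaggcaacGCTAAGCTCtga
CROT (chr7:87398621-87398644, plus strand, exon 18 of 18): ctgatgaactctACTCATCTTtag
ACAA1 (chr3:38123047-38123070, minus strand, exon 12 of 12): gtctttgaatacCCTGGGAACtga

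The members spanned a wide range of levels, and the redox genes PRDX5 and IDH1 were the highest per kilobase. Per kilobase of the deposited gene length, PRDX5, a peroxiredoxin found in peroxisomes, mitochondria and the cytosol, stood at 114 and 127 CPM per kb (CPM being counts scaled to a common library size) in HT29 LPS and control cells and at 223 and 206 CPM per kb in those of HCT116. IDH1, the NADPH-producing isocitrate dehydrogenase of the cytosol and peroxisome, came next with 29.3 and 31.9 CPM per kb in HT29 and 30.9 and 32.2 CPM per kb in HCT116. GNPAT, the first enzyme of ether lipid synthesis, followed with 24.0 and 28.3 CPM per kb in HT29 and 24.7 and 26.9 CPM per kb in HCT116, and CAT, the catalase that degrades hydrogen peroxide, with 21.2 and 22.2 CPM per kb in HT29 and 22.4 and 19 CPM per kb in HCT116. GNPAT stayed above CAT in all 4 libraries, and IDH1 above GNPAT, with gaps between neighbours about as wide as the spread of a gene over the libraries. At the low end in HT29 stood ACOX2 with 0.053 and 0.044 CPM per kb and EHHADH with 0.29 and 0.38 CPM per kb, whereas the low end in HCT116 was CROT with 0.039 and 0 CPM per kb.

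**Figure D1:**
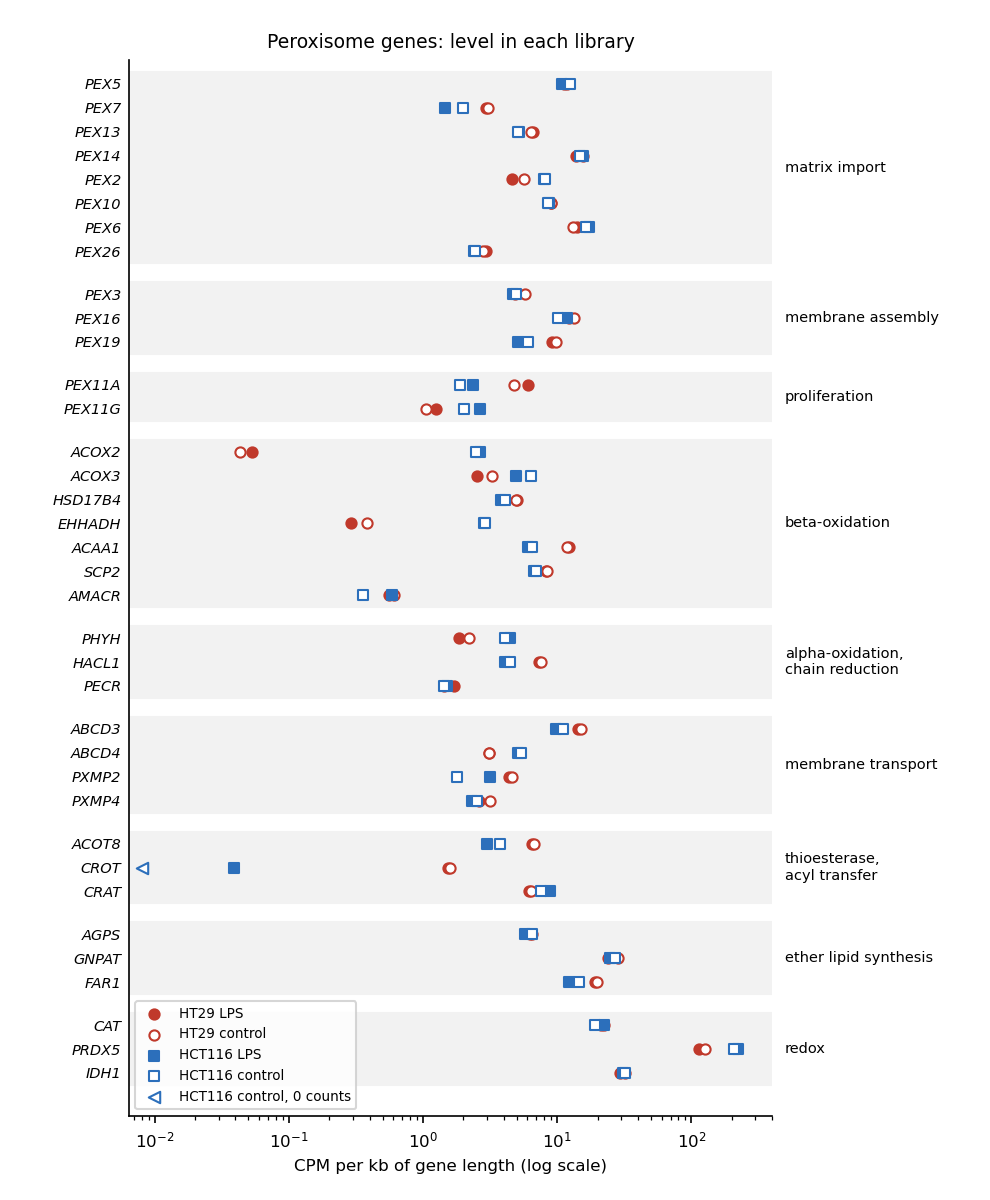
Level of each of the 36 members in the 4 libraries, in CPM per kb of gene length on a log axis, with members grouped by role. Filled marks are LPS libraries and open marks controls, circles are HT29 and squares HCT116, and the triangle at the left edge is the HCT116 control library of CROT with 0 counts. On this axis the 4 marks of most members lie close together, while those of ACOX2, EHHADH and CROT lie far apart by line. In all, 24 members were called between the lines, most of them with smaller differences.

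In the other roles, the highest members per kilobase were PEX6 and PEX14 among the import factors, PEX16 among the membrane assembly factors, ABCD3 among the transporters, ACAA1 in beta-oxidation in HT29 and SCP2 in HCT116, HACL1 in alpha-oxidation in HT29, and CRAT among the acyl transfer enzymes in HCT116. This order depends on the deposited lengths and can differ from the order by counts. HSD17B4 had the most counts of the beta-oxidation genes in every library, with 2470 and 2194 in HT29 LPS and control cells and 1958 and 2314 in HCT116. Its deposited length of 24901 bases brought it to 5.00 and 4.89 CPM per kb in HT29 and 3.80 and 4.11 CPM per kb in HCT116. PEX6, an AAA ATPase that extracts the receptor from the membrane, had 14.1 and 13 CPM per kb in HT29 LPS and control cells and 17.1 and 16.3 CPM per kb in HCT116. PEX14, a docking protein, had 13.9 and 15.6 CPM per kb in HT29 and 15.7 and 14.7 CPM per kb in HCT116. The order of these genes differed between libraries, so PEX6 and PEX14 were not separated in HT29. PEX11A had the higher level of the 2 proliferation factors in HT29 with 6.05 and 4.79 CPM per kb, whereas PEX11G had 2.67 and 2.03 CPM per kb in HCT116 beside 2.36 and 1.9 CPM per kb for PEX11A, so that in HCT116 the gap between the genes was smaller than the gap between treatments.

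To compare the lines, HT29 was set over HCT116 in edgeR's quasi-likelihood test with treatment as a block, so that the LPS and control libraries of a line stood in for replicates. With 1 residual degree of freedom, and with nothing stating that the libraries came from separate cultures, these p-values measure only the spread between 4 libraries. Of the 36 members, 14 were higher in HT29 and 10 were lower at an adjusted p under 0.05. Those are shares of 38.9% and 27.8%, beside 38.0% higher and 38.6% lower among all 14516 genes tested, and whether the members depart from other genes was not tested. Only 6 members were called and beyond 2-fold (CROT, PEX11A, PEX11G, PHYH, EHHADH and ACOX2), beside 39.9% of all genes, and the median absolute log2 fold change was 0.44 over the members and 0.76 over all genes. The members were somewhat more abundant than other genes, with a median of 34.0 against 25.5 CPM. The same values were therefore taken at a mean of at least 5 CPM, a check chosen after seeing the data. There, 3 of 30 members were called beyond 2-fold beside 34.1% of genes. The mean ran over all 4 libraries, so the filter removed CROT and ACOX2, each nearly absent from 1 line, and PEX11G. In bulk RNA, fewer cells of a type and less RNA per cell cannot be told apart.

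**Figure D2:**
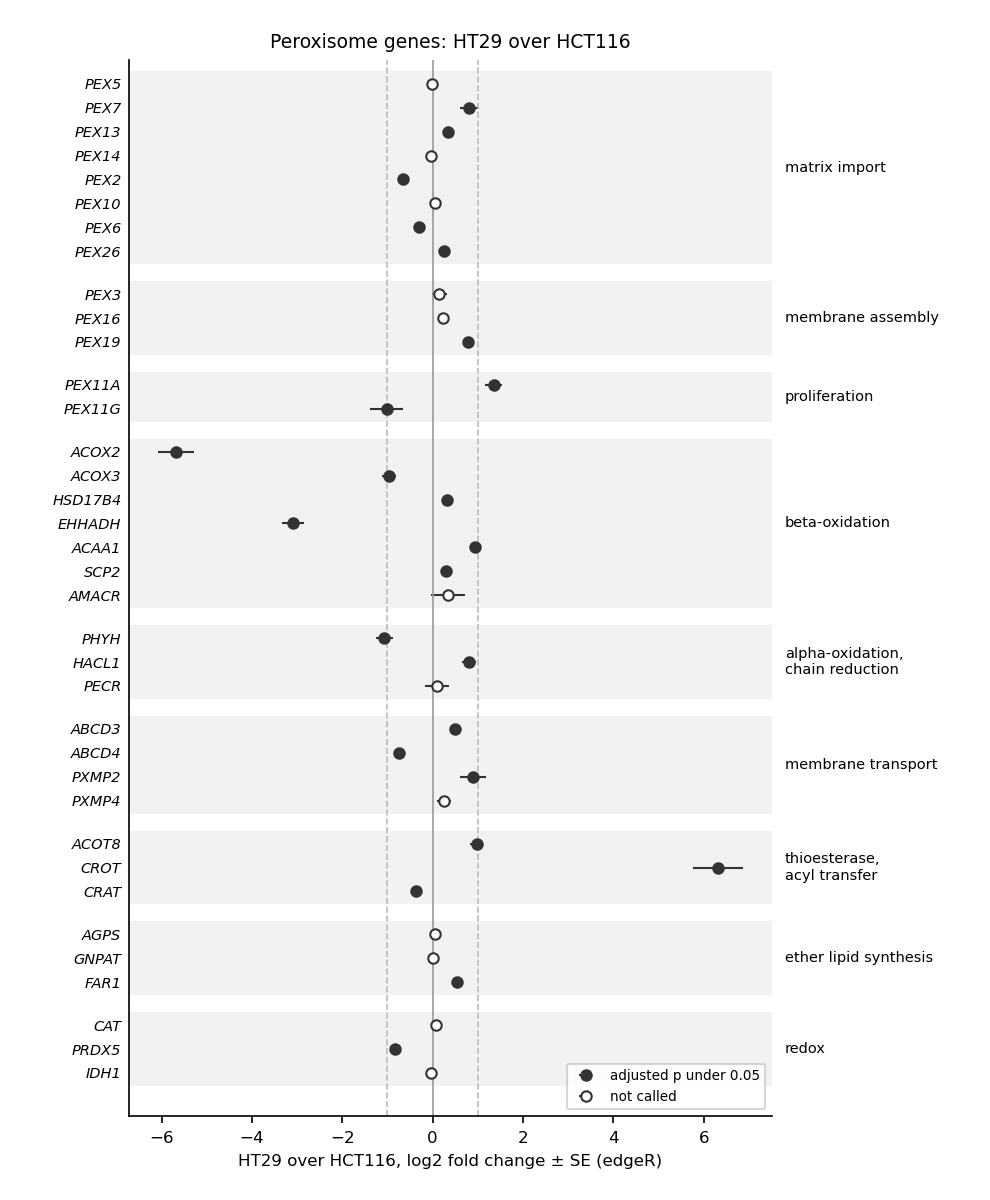
HT29 over HCT116 log2 fold change of each member with its standard error from edgeR, grouped by role. Filled points passed an adjusted p of 0.05, open points did not, and the dashed lines mark 2-fold. ACOX2 and EHHADH lie far to the left, CROT lies far to the right, and all 8 matrix import factors stay within 2-fold.

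Among the 8 matrix import factors, PEX7, PEX13 and PEX26 were higher in HT29, PEX2 and PEX6 were lower, and PEX5, PEX14 and PEX10 were not called, so 3 and 2 of 8 were called where 38.0% and 38.6% of all genes were. None of the 8 differed by more than 2-fold. PEX5, the receptor for C-terminal signals, had 1221 and 1171 counts in HT29 LPS and control cells, against 1227 and 1539 counts in HCT116. Scaled for depth and length, its levels overlapped between the lines, at 11.2 and 11.8 CPM per kb in HT29 and 10.8 and 12.4 CPM per kb in HCT116, and the log2 fold change was -0.01 ± 0.08 (SE). PEX7, the receptor for N-terminal signals, was higher in HT29, with 200 and 186 counts against 103 and 152 counts in HCT116 (log2 fold change 0.81 ± 0.21, edgeR adjusted p = 0.0018). PEX2, a RING finger ubiquitin ligase of the import complex, was lower in HT29, with 452 and 503 counts against 813 and 912 counts in HCT116 (log2 fold change -0.66 ± 0.11). The docking factor PEX13 had a log2 fold change of 0.35 ± 0.11, PEX26, the membrane anchor of the AAA ATPases, 0.24 ± 0.09, and PEX6 itself -0.31 ± 0.09. The call of PEX26 was lost in DESeq2 (adjusted p = 0.051), and in edgeR scaled by library size alone those of PEX26 (adjusted p = 0.372) and PEX13 (adjusted p = 0.11) were lost. PEX10, another RING ligase subunit, and PEX14 stayed at 0.06 ± 0.11 and -0.04 ± 0.10. PEX10 shares 39.1% of its exon bases with the antisense gene RER1, and the protocol does not state a strand-marking kit, so its counts are uncertain.

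Of the factors that insert membrane proteins, PEX19, the cytosolic chaperone of peroxisomal membrane proteins, was higher in HT29, with 815 and 794 counts in LPS and control cells against 472 and 614 counts in HCT116 (log2 fold change 0.77 ± 0.11, edgeR adjusted p = 2.3e-06). All values of PEX19 in HT29 were above those in HCT116. PEX3, the membrane docking factor for PEX19, and PEX16, which recruits PEX3, were not called, at 0.15 ± 0.16 and 0.23 ± 0.11.

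The 2 proliferation factors went in opposite directions. PEX11A, which elongates the peroxisomal membrane and in rodents is induced by peroxisome proliferators, had 381 and 274 counts in HT29 LPS and control cells, against 155 and 136 counts in HCT116. Both HT29 libraries were above both HCT116 libraries, and the log2 fold change was 1.35 ± 0.18 (edgeR adjusted p = 8.8e-07). PEX11G, a related membrane factor, had 37 and 28 counts in HT29, against 82 and 68 counts in HCT116 (log2 fold change -1.02 ± 0.37, edgeR adjusted p = 0.017). This gene had few counts, and its call was lost in DESeq2 with an adjusted p of 0.062.

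The beta-oxidation genes held 2 of the 3 largest differences among the members, in ACOX2 and EHHADH. ACOX2, the oxidase that starts the shortening of branched fatty acids and bile acid intermediates, had 4 and 3 counts in HT29 LPS and control cells, against 209 and 214 counts in HCT116. The HT29 levels lay near the limit of detection, and the summed counts were 52.9-fold higher in HCT116 (95% counting interval 25.4 to 132), with a log2 fold change of -5.68 ± 0.40 (edgeR adjusted p = 6.0e-11). EHHADH, the L-bifunctional enzyme of the hydration and dehydrogenation steps, had 27 and 32 counts in HT29, against 272 and 305 counts in HCT116. It remained detectable in HT29 at a log2 fold change of -3.09 ± 0.25 (edgeR adjusted p = 5.4e-10). The counting intervals here and below cover counting error only.

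The enzymes that carry out neighbouring or parallel steps were expressed in both lines. ACOX3, the oxidase for pristanoyl-CoA, had 194 and 226 counts in HT29 LPS and control cells, against 393 and 551 counts in HCT116 (log2 fold change -0.96 ± 0.15). HSD17B4, the D-bifunctional enzyme that works at the same steps as EHHADH on branched and very long chains, had 2470 and 2194 counts in HT29 and 1958 and 2314 counts in HCT116. Its counts overlapped between the lines, while after scaling for depth its log2 fold change was 0.32 ± 0.07 (edgeR adjusted p = 0.00031). ACAA1, the thiolase of the last step, had 1716 and 1519 counts in HT29 and 894 and 1049 counts in HCT116, and was higher in HT29 at 0.93 ± 0.08. SCP2, whose longer product is the thiolase for branched chains, was higher by 0.29 ± 0.08, a call lost with library size alone (edgeR adjusted p = 0.125), and AMACR, the racemase that prepares branched chains for oxidation, was not called at 0.34 ± 0.38. AMACR is thinly counted, with between 39 and 59 counts per library, and shares 72.3% of its exon bases with other genes, among them the read-through gene C1QTNF3-AMACR on the same strand. ACAA1 shares 21.2% of its exon bases with other genes, which are the antisense gene DLEC1 and a Y RNA gene on the same strand. DLEC1 had between 4 and 47 counts.

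**Figure D3:**
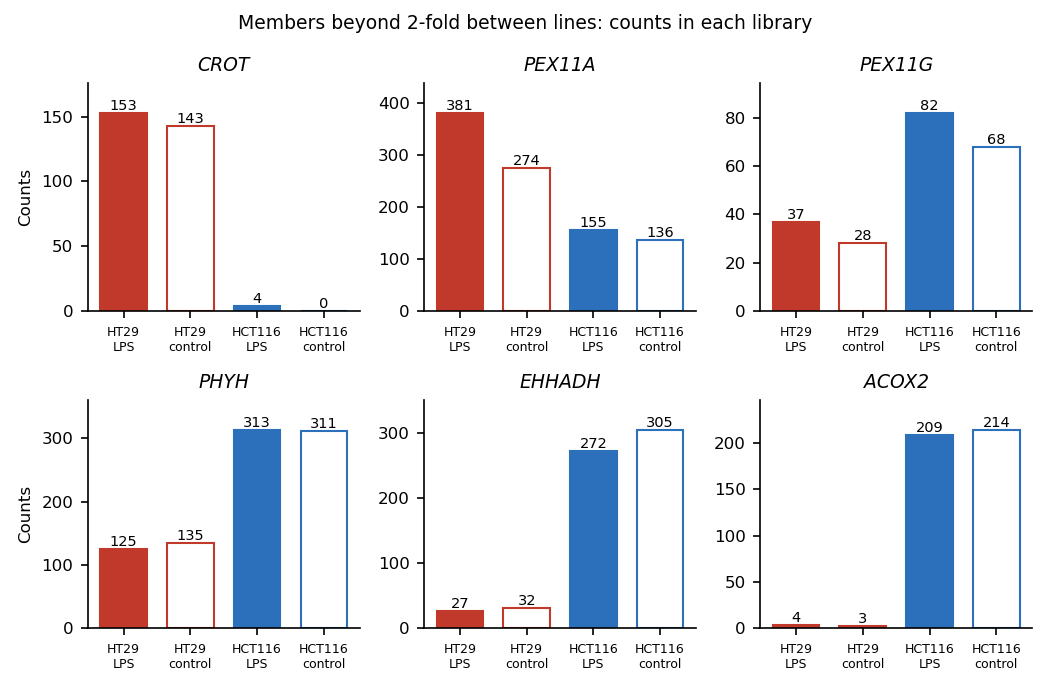
Counts in each library for the 6 members called beyond 2-fold between the lines, with the y axis of each panel starting at 0. Filled bars are LPS libraries, open bars controls, red HT29 and blue HCT116, with 1 library per bar and no error bar. CROT has 153 and 143 counts in HT29, against 4 and 0 counts in HCT116, while ACOX2 shows the opposite arrangement.

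Among the enzymes of thioester hydrolysis and acyl transfer, CROT, the carnitine octanoyltransferase that prepares medium chains for export to mitochondria, had 153 and 143 counts in HT29 LPS and control cells, against 4 and 0 counts in HCT116. The HCT116 control library held none, and against a floor of 3 counts the level of the HT29 control library was at least 59.8-fold higher. Over both treatments the summed counts were 84.6-fold higher in HT29 (95% counting interval 32.7 to 313), with a fitted log2 fold change of 6.31 ± 0.55 (edgeR adjusted p = 2.2e-09). CRAT, the carnitine acetyltransferase, was lower in HT29 by a much smaller difference, with 931 and 872 counts in HT29 and 1379 and 1297 counts in HCT116 (log2 fold change -0.38 ± 0.09, edgeR adjusted p = 0.00068). ACOT8, a thioesterase that releases free fatty acids from CoA, was higher in HT29, with 562 and 523 counts against 270 and 369 counts in HCT116 (log2 fold change 0.97 ± 0.14). ACOT8 shares 34.2% of its exon bases with the antisense gene SNX21, which had 132 and 165 counts in HT29 LPS and control cells and 494 and 563 counts in HCT116.

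CROT and PEX11A were the members called more than 2-fold higher in HT29, and their promoters are given here from RefSeq on GRCh38.p14, from 250 bases before to 50 bases after the start of the gene, 5′ to 3′ on the strand of the gene, with each CG dinucleotide in capitals. The table of promoters held 30 of the 36 members, without ACOX2, EHHADH, ACAA1, CRAT, PEX2 and PEX14.
CROT (chr7:87345414-87345713, plus strand): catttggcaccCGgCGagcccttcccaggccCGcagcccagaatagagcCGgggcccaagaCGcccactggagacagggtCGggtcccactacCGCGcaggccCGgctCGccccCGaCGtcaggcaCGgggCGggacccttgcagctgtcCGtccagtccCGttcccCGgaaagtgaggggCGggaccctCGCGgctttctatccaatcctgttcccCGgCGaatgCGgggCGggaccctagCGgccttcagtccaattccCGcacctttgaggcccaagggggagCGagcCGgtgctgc
PEX11A (chr15:89690705-89691004, minus strand): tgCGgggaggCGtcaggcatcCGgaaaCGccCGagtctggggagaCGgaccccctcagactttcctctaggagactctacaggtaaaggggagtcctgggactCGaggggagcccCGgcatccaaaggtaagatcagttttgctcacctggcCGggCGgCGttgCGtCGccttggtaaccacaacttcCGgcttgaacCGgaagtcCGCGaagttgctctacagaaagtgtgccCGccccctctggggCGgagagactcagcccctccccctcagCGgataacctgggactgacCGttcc
The CROT window holds 28 CG dinucleotides and the PEX11A window 21, where the median is 21.5 over the 30 members and 14 over all 35116 promoters. The nuclear receptor motif AGGTCA was searched on both strands. Neither promoter holds it, and it lies in 3 of 30 member promoters (ABCD4, AGPS and PXMP4) and in 13.8% of all promoters. Its direct repeat with a spacing of 1 base (AGGTCANAGGTCA, which contains that motif) lies in none of the 30 and in 0.023% of all. The GC box GGGCGG lies in both windows, in 21 of 30 member promoters and in 45% of all, and CCAAT lies in the CROT window, in 13 of 30 and in 34.6% of all.

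Both measured enzymes of alpha-oxidation, which removes 1 carbon from phytanic acid and 2-hydroxy acids, were called between the lines. Of all genes, 38.0% were called higher in HT29 and 38.6% lower. PHYH, the phytanoyl-CoA hydroxylase, had 125 and 135 counts in HT29 LPS and control cells, against 313 and 311 counts in HCT116 (log2 fold change -1.07 ± 0.19, edgeR adjusted p = 3.5e-05). HACL1, the lyase of the following step, had 443 and 417 counts in HT29 and 257 and 310 counts in HCT116, so that it was higher in HT29 at 0.80 ± 0.15. PHYH was thus lower and HACL1 higher in HT29. PECR, a trans-2-enoyl-CoA reductase, was not called, at 0.09 ± 0.27.

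Of the membrane proteins, ABCD3, the transporter for branched and bile acid precursors, was higher in HT29, with 2185 and 2065 counts in LPS and control cells against 1549 and 1903 counts in HCT116 (log2 fold change 0.50 ± 0.07). ABCD4, an ABC transporter best known for lysosomal export of vitamin B12, was lower, with 552 and 503 counts against 946 and 1087 counts in HCT116 (-0.75 ± 0.10). PXMP2, described in mouse as a membrane channel, was called higher at 0.89 ± 0.29 (edgeR adjusted p = 0.0082), a call that DESeq2 did not make at an adjusted p of 0.084. PXMP4 was not called at 0.25 ± 0.16.

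In ether lipid synthesis, GNPAT and AGPS were not called between the lines. GNPAT had 1557 and 1662 counts in HT29 LPS and control cells and 1670 and 1987 counts in HCT116 (log2 fold change 0.01 ± 0.07), and AGPS, which exchanges the acyl chain for an alcohol, had 1880 and 1770 counts in HT29 and 1820 and 2232 counts in HCT116 (0.05 ± 0.07). FAR1, the reductase that supplies the fatty alcohol, was higher in HT29, with 2871 and 2698 counts against 1906 and 2480 counts in HCT116 (0.55 ± 0.07, edgeR adjusted p = 6.4e-07). FAR1 and IDH1 each have another locus in the genome with between 90% and 98% identity, so part of their counts may be uncertain. Among the redox genes, PRDX5 was lower in HT29, with 1953 and 1970 counts against 3976 and 4011 counts in HCT116 (-0.83 ± 0.07, edgeR adjusted p = 2.2e-09), while CAT (0.08 ± 0.08) and IDH1 (-0.05 ± 0.07) were not called. Of the 12 members not called, 11 differed by at most 1.19-fold, the value of PXMP4, and AMACR by 1.26-fold.

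Other genes of the same pathways were taken from lists of related genes. Of 34 other peroxisomal genes, 26 were tested, 11 were higher in HT29 and 11 were lower in edgeR, which is 42.3% in each direction beside 38.0% and 38.6% of all genes. ECI2, an enoyl-CoA isomerase for unsaturated chains, had 12 and 11 counts in HT29 LPS and control cells, against 718 and 737 counts in HCT116 (log2 fold change -5.78 ± 0.22). EPHX2, an epoxide hydrolase, had 13 and 4 counts in HT29, against 282 and 363 counts in HCT116 (-5.03 ± 0.33). Both genes were thus low in HT29 like ACOX2, whereas FAR2, a second fatty acyl-CoA reductase, and SLC27A2, a very long chain acyl-CoA synthetase, were higher in HT29 at 1.61 ± 0.16 and 1.53 ± 0.13. In mitochondrial beta-oxidation, the pathway most like the peroxisomal one, 5 of 16 genes were higher in HT29 and 10 were lower, shares of 31.2% and 62.5% beside the same 38.0% and 38.6%, with values within about 2 on the log2 scale, from -1.45 ± 0.12 in DECR1 and -1.45 ± 0.15 in ACADS to 1.59 ± 0.07 in ECHS1 and 1.82 ± 0.09 in ACAA2.

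Of 8 regulators, 6 were tested, 4 were higher in HT29 and 2 were lower in edgeR, beside 38.0% and 38.6% of all genes. HNF4A, a nuclear receptor of the intestinal and hepatic epithelium, had 1398 and 1470 counts in HT29 LPS and control cells, against 259 and 257 counts in HCT116 (log2 fold change 2.67 ± 0.11). PPARG, a lipid-sensing nuclear receptor, had 1596 and 1543 counts in HT29, against 685 and 686 counts in HCT116 (1.39 ± 0.09). PPARA, the receptor that in rodents responds to peroxisome proliferators, was higher in HT29 at 0.37 ± 0.10, and PPARD, another PPAR, was lower at -0.57 ± 0.09. RXRA, the partner of the PPARs, was higher at 0.71 ± 0.07, and the coactivator PPARGC1B was lower at -0.92 ± 0.18. Of 7 genes of fission and turnover, 1 was higher in HT29 and 3 were lower, a share of 14.3% and 42.9% beside the same background. FIS1, a membrane adaptor of fission, was higher at 0.82 ± 0.08, and TRIM37 (-0.93 ± 0.08), MARCHF5 (-0.73 ± 0.08), both ubiquitin ligases, and the autophagy receptor NBR1 (-0.33 ± 0.07) were lower.

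**Figure D4:**
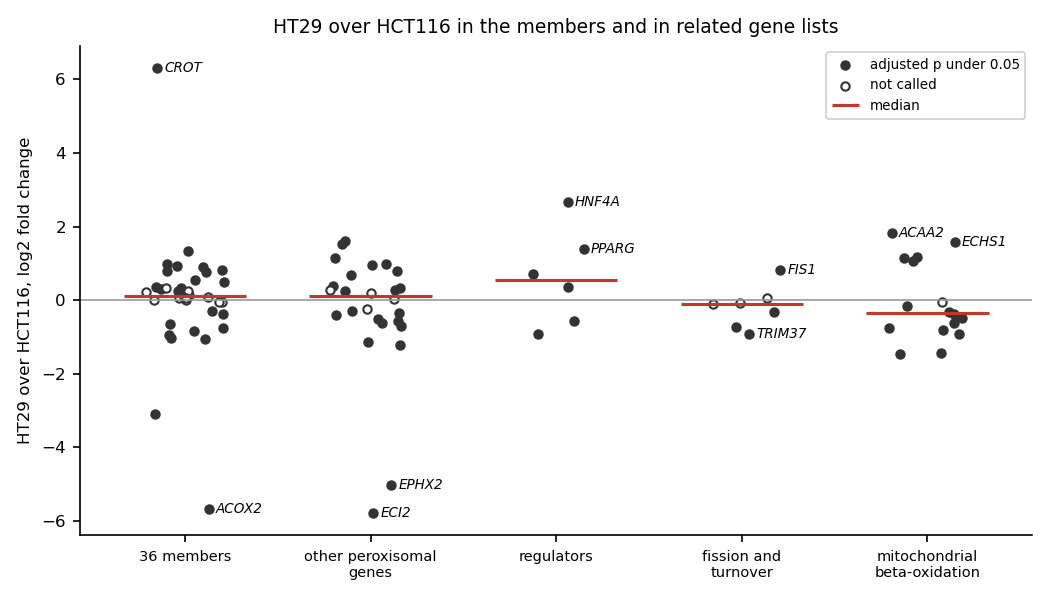
HT29 over HCT116 log2 fold change from edgeR for the tested genes of the member list and of 4 related lists. Each point is a gene, filled where the adjusted p was under 0.05, the red line is the median of the list, and the 2 genes farthest from 0 are named in each list. The points beyond 5 on the log2 scale in either direction are CROT, ACOX2, ECI2 and EPHX2.

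The second comparison was LPS over control within each line, taken as the log2 ratio of normalized counts with a 95% counting interval for members whose mean in that line was 1 CPM or more. ACOX2 in HT29 and CROT in HCT116 did not reach that level, which left 35 members in each line. Few members, and few of all genes, moved far after LPS. In HT29, none of 35 members lay above 0.58 or below -0.58 on the log2 scale, a limit of about 1.49-fold, beside 3.50% and 2.70% of 13201 genes. In HCT116, 2 of 35 members lay above 0.58 and none lay below -0.58, beside 3.56% and 2.34% of 14337 genes. The median log2 ratio was -0.05 over the members in HT29 and -0.04 in HCT116, beside -0.0076 and -0.0025 over all genes.

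Counting intervals are narrow at this depth, and they do not cover the spread between cultures. In HT29, the interval of 1 member lay above 0 and the intervals of 8 members lay below 0, beside 15.9% and 18.5% of all genes. In HCT116, 6 members lay above 0 and 10 lay below 0, beside 17.0% and 18.2% of all genes. Across the 34 members measured in both lines, none had both intervals above 0 and 2 had both below 0 (ACOX3 and GNPAT), beside 4.41% and 6.34% of 12085 genes. With length and GC trends removed only ACOX3 was left, and with library size alone IDH1 was the third. None went up in HT29 and down in HCT116, and 1 went the other way (PRDX5), beside 2.33% and 2.13% of these genes.

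**Figure D5:**
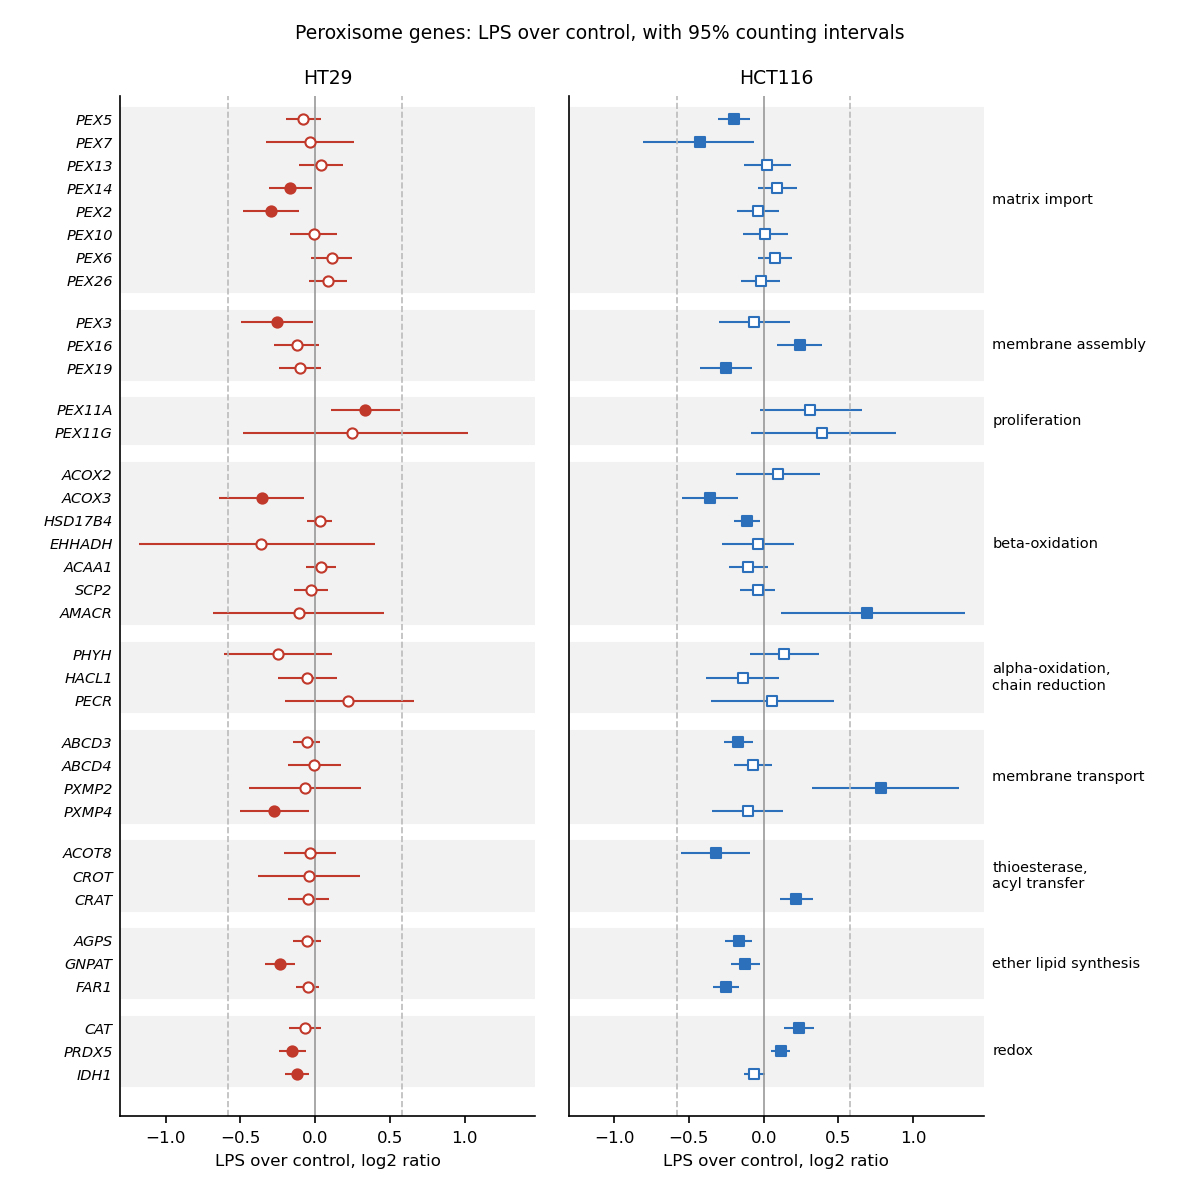
LPS over control log2 ratio of each member in HT29 and in HCT116, with 95% counting intervals, from 1 LPS and 1 control library per line. Filled marks have an interval wholly above or below 0, and the dashed lines mark 0.58 in either direction. ACOX2 is left out for HT29 and CROT for HCT116 because of their low counts, and only AMACR and PXMP2 in HCT116 pass a dashed line.

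The 2 members beyond the limit in HCT116 were both thinly counted. PXMP2 had 93 counts in the LPS library and 58 in the control library of HCT116, a log2 ratio of 0.79 (95% interval 0.32 to 1.31), whereas HT29 had 124 and 118 counts and a log2 ratio of -0.07 (-0.44 to 0.31). AMACR had 59 and 39 counts in HCT116 LPS and control cells, a log2 ratio of 0.69 (0.12 to 1.35), and 54 and 53 counts in HT29, a log2 ratio of -0.11 (-0.69 to 0.46). In both genes a single library, the HCT116 control, stood below the other libraries per kilobase. PXMP2 shares 28.9% of its exon bases with another gene annotated on the same strand that had 0 counts in every library. AMACR shares 72.3% of its exon bases with other genes, so its counts are uncertain.

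ACOX3 was lower after LPS by the same amount in both lines. Its counts were 194 and 226 in HT29 LPS and control cells and 393 and 551 in those of HCT116, with log2 ratios of -0.36 (95% interval -0.64 to -0.08) and -0.36 (-0.55 to -0.17). GNPAT was lower with log2 ratios of -0.23 (-0.33 to -0.13) in HT29 and -0.12 (-0.22 to -0.03) in HCT116, where the interval was -0.19 to 0.0013 with length and GC trends removed. The other genes of ether lipid synthesis, AGPS and FAR1, had intervals below 0 in HCT116 at -0.17 (-0.26 to -0.08) and -0.25 (-0.34 to -0.16), and in HT29 the log2 ratios were -0.05 for both, with intervals that included 0.

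PEX11A was the only member with an interval above 0 in HT29, at 381 and 274 counts in LPS and control cells and a log2 ratio of 0.33 (95% interval 0.11 to 0.57). In HCT116 its counts were 155 and 136, and the log2 ratio of 0.31 had an interval of -0.02 to 0.66. The values are close to each other, and the interval in HCT116 includes 0. Among the import and assembly factors, the intervals of PEX2 (-0.29), PEX3 (-0.25) and PEX14 (-0.16) lay below 0 in HT29, whereas in HCT116 those of PEX7 (-0.43), PEX19 (-0.25) and PEX5 (-0.20) lay below 0 and that of PEX16 (0.24) lay above 0. No import or assembly factor had an interval beyond 0 in both lines. Of 12085 genes, 4.41% had both intervals above 0, 6.34% both below 0, and 2.33% and 2.13% on opposite sides. Whether these factors depart from other genes was not tested.

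PRDX5 and CAT, of the redox genes, had LPS ratios of different sign in the 2 lines. PRDX5 had 1953 and 1970 counts in HT29 LPS and control cells, a log2 ratio of -0.15 (95% interval -0.24 to -0.06), and 3976 and 4011 counts in HCT116, a log2 ratio of 0.12 (0.05 to 0.18). The unscaled counts of LPS and control cells were close in both lines, so both ratios rest on the scaling for depth. CAT had a log2 ratio of 0.23 (0.13 to 0.34) in HCT116 and -0.07 (-0.17 to 0.04) in HT29, and IDH1 had -0.06 (-0.13 to 0.01) in HCT116 and -0.12 (-0.20 to -0.04) in HT29. In HCT116 the intervals of CRAT (0.22) also lay above 0, and those of ACOT8 (-0.32), ABCD3 (-0.17) and HSD17B4 (-0.11) lay below 0, while in HT29 that of PXMP4 (-0.27) lay below 0. Differences between the lines in the response to LPS could not be tested with 1 library per group.

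With both lines in 1 edgeR fit and the line as a block, no member was called higher or lower after LPS, beside 0.124% and 0.0964% of 14516 genes. At an unadjusted p under 0.05, edgeR gave 3 of 36 members (ACOX3, GNPAT and FAR1), beside 7.58% of all genes, and DESeq2 called none and gave 1 at the unadjusted limit. The adjusted p of ACOX3 was 0.60 and that of GNPAT 0.57, with log2 ratios below 0 in 2 of 2 lines for both. With 2 lines in place of replicates, a change in the members after LPS was not detected, which does not show that it is absent.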

How the data were processed

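RNA-seq was performed on 4 libraries of 2 cell lines. Per the paper's methods and the labels, RNA was prepared with the NEBNext Ultra RNA kit, sequenced in pairs, trimmed, aligned to hg38 and counted per gene against a GENCODE annotation whose release is not stated in these sources. The submitters' processing notes name cutadapt 1.9, Trimmomatic 0.39, HISAT2 2.1.0 and featureCounts 2.0.1. The authors deposited raw counts per gene, with the gene length as a further (other) column, and its settings for strand and multiply mapped reads were not stated. Reads shared by overlapping or near-identical genes therefore cannot be assigned with certainty.

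Symbols were added from GENCODE 44. Counts were scaled by TMM and tested in edgeR 4.0.16 (quasi-likelihood test, genes averaging 1 CPM or more over the 4 libraries, Benjamini-Hochberg over all 14516 genes, called at an adjusted p under 0.05), with line and treatment in 1 model. Standard errors are the absolute log2 fold change divided by the square root of the F statistic. LPS ratios within a line used a prior count of 2, with Clopper-Pearson 95% intervals taken without the prior. The smallest level counted for a fold against 0 was 3 counts. Alternatives were DESeq2 1.42.0, other scalings, filters and prior counts, a limit of 1 in place of 0.58, and removal of trends with length and GC content. The scripts were tested on simulated data. Copies of the listed genes were sought with minimap2 2.31-r1302, and promoters and coding ends were read from RefSeq and from GENCODE 44 on hg38.

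All 36 members are described by role. Given in full are members beyond 0.58 after LPS, members with counting intervals on 1 side of 0 in both lines or on opposite sides, members called beyond 2-fold between lines, the highest member per kilobase in each role, and up to 4 called genes with the largest differences from each other list. The members and lists were chosen with earlier results of these data known.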

Additional observations from a re-analysis of the deposited data

Results flagged for a closer look

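PRDX5 had LPS over control log2 ratios in opposite directions in the lines, -0.151 in HT29 and 0.115 in HCT116, and the 95% counting intervals lay on opposite sides of 0. It was 1 of 34 members with this pattern, beside 2.13% of 12085 genes. Unscaled counts of LPS and control cells were close in both lines, so both ratios rest on the scaling for depth. Whether the lines differ was not tested, since each line has 1 LPS and 1 control library.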

How the results depend on the processing

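The line test called 12 members higher and 9 lower in HT29 with DESeq2, 11 and 11 with library size alone, 13 and 8 of 30 at a mean of at least 5 CPM, and 14 and 10 with DESeq2 size factors, with no filter and with no block. Among all genes, the calls were 4968 higher and 5194 lower of 14516 with DESeq2, and 4596 and 6384 of 14523 with library size alone. At a mean of at least 5 CPM they were 4823 and 4304 of 11298. With DESeq2 size factors they were 5479 and 5555 of 14516, with no filter 5803 and 6417 of 30392, and with no block 5443 and 5525 of 14516. With library size alone, the median log2 fold change of all genes moved to -0.18 from -0.02, so differences there are read relative to that shift; PEX13, PEX26 and SCP2 then lost their calls, and IDH1 gained one. DESeq2 lost PEX26, PEX11G and PXMP2, and PEX16 gained a call at a mean of at least 5 CPM (edgeR adjusted p = 0.047). In the LPS pair and the control pair alone, which gave values and no test, the log2 ratios of HT29 over HCT116 were -0.07 and 0.23 for CAT, 0.05 and 0.41 for PEX16, -0.51 and -0.25 for CRAT, 0.65 and 0.45 for FAR1, and -0.96 and -0.70 for PRDX5. The sign differed between the pairs for 6 members, none of them called (PEX5, PEX14, AMACR, AGPS, GNPAT and CAT), most widely for AMACR at -0.07 and 0.74. In HCT116, the count of members above the limit after LPS was 0 at a mean of at least 5 CPM and 0 at a limit of 1. Members with both intervals below 0 numbered 1 with length and GC trends removed, where GNPAT was lost, and 3 with library size alone, where IDH1 was added. No result changed direction where it was called, and no alternative called a member in the shared LPS test. Of all genes tested, those alternatives called between 0 and 78 higher and between 0 and 58 lower. No paired analysis was possible because each group has 1 library and every column name carries the same number, 1, so a replicate block has nothing to separate. The tests had treatment or line as the block instead. Low counts limit ACOX2 and EHHADH in HT29, CROT in HCT116 and AMACR in every library, and give wide intervals. AMACR also shares 72.3% of its exon bases with other genes, so its counts are uncertain.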
